A study of Homo sapiens with 6 samples.

Results

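The genes of the EGFR family signalling module were examined in A549, an established human lung adenocarcinoma cell line, with and without the gene for miR-21. The 10 genes were chosen by symbol from the 58174 genes of the deposited table. They comprised 3 receptors (EGFR, ERBB2, ERBB3), 6 ligands (AREG, EREG, HBEGF, TGFA, BTC, NRG1) and the inhibitor ERRFI1. Parental A549 cells (Ctrl, 3 libraries) were compared with A549 cells carrying a CRISPR/Cas9 deletion in the MIR21 locus (MIR21-KO, 3 libraries). All cells were harvested 48 h after seeding, and polyA RNA was sequenced. MIR21-KO cells went back to sorted individual cells, whereas Ctrl cells were the parental population, and how many clones the 3 libraries represent is not stated. Differences between clones and effects of the deletion therefore cannot be told apart. The study describes the RNA-seq samples as independent, without saying how their cultures were separated, and p-values measure the spread between these libraries.

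EGFR and its relatives ERBB2 and ERBB3 are receptor tyrosine kinases that act in pairs. Ligands are made as membrane proteins, are released by proteases such as ADAM17, and bring receptors together. AREG, EREG, HBEGF, TGFA and BTC bind EGFR, and NRG1 binds ERBB3. ERBB2 has no known ligand, and ERBB3 has little kinase activity of its own. Active receptors signal through adaptors to RAS, ERK and PI3 kinase, and are switched off by ubiquitination, endocytosis and inhibitors such as ERRFI1 (also known as MIG6). In lung adenocarcinoma EGFR is a frequent target of activating mutations and of treatment.

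The question asked of the transcripts was which members of the module differ between MIR21-KO and Ctrl cells. Since a miRNA acts through short matches to its seed, the mature sequence is given first, with the seed (bases 2 to 8) in capitals, as listed by RefSeq for chromosome 17, 59841273 to 59841294 (plus strand, GRCh38.p14).
miR-21-5p: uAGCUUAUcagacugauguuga

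The 7 bases complementary to this seed, ATAAGCT, were present in the longest annotated 3′ UTR (GENCODE 29) of 0 of the 10 genes, and in no other annotated 3′ UTR of these genes either. Among 11655 tested protein-coding genes, 10.6% held this heptamer in the longest 3′ UTR. The shorter match TAAGCT, found in 29.4% of these genes, was present in EGFR, TGFA, BTC and NRG1. The stretches of the 3 matches outside NRG1 are printed below, as found in a search for the heptamer and TAAGCT only. Capitals mark the 6 matching bases.
EGFR: acctcattggggagcTAAGCTaggt
TGFA: aacatcctgacctggTAAGCTgcca
BTC: ttcaaaagtctcattTAAGCTcatt
The EGFR match, directly after position 4350 of a 3′ UTR of 6011 bases, is followed by an A, which makes it a 7mer-A1 site. The longest UTRs of AREG (269 bases), EREG (3943 bases) and ERRFI1 (1843 bases) did not hold TAAGCT. A match of letters is a description only. Sites without a seed match, and matches to other stretches of 6 bases in the seed, were not searched.

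Expression is given as FPKM, that is reads scaled to gene length and library size. The length used was 1 value per gene, from 1648 bases for AREG to 12521 for EGFR. Whether it matches the transcripts present was not checked. Orders, ratios and shares between different genes hold only as far as it does, whereas comparisons of 1 gene between the groups do not depend on it. Libraries held 10631667 to 14345209 reads, and the weight of 1 read per 1 kb of gene ranged from 0.0731 to 0.0930 FPKM. A count of 0 allows up to 3 reads, which covers counting error only. MIR21 itself was listed at 0 in all 6 libraries, Ctrl included, so that its row says nothing of the deletion. Mature miRNAs have no polyA tail, but whether that accounts for the 0 was not tested. VMP1, the host gene of MIR21, was at 70.7, 76.8 and 77.8 FPKM in Ctrl. In MIR21-KO replicates 1 to 3 it was at 134.6, 144.5 and 148.5 FPKM. MIR21-KO libraries differed more from each other than Ctrl libraries did. Chi-square divided by its degrees of freedom, near 1 for libraries that differ by sampling noise alone, was 7.70 to 32.8 between MIR21-KO libraries, with the highest value for replicates 1 and 3, and 2.69 to 5.30 between Ctrl libraries. The label was checked against marker genes: KRT7, KRT8, KRT18 and KRT19 gave most of a summed epithelial level of 1684 to 1807 FPKM in Ctrl and 1217 to 1745 FPKM in MIR21-KO cells. EPCAM was low in all libraries, at 0.389 to 1.65 FPKM. CDH1, which encodes E-cadherin, fell from 8.18 ± 0.584 to 2.86 ± 0.148 FPKM (SD, n = 3 each, FDR = 0.000175, limma). It was the 1 called gene of the 6 epithelial markers (16.7%, against 16.0% of all tested genes). Of 12 markers of leukocytes, endothelium and fibroblasts, 0 of the 3 tested were called. Their summed level was 8.93 to 9.38 FPKM in Ctrl and 10.6 to 11.03 FPKM in MIR21-KO cells. CD14, COL1A1 and LUM carried most of it, CD3E was at 0 in all libraries, and PTPRC had at most 2 reads. COL3A1, a fibroblast collagen, was at 0.112 ± 0.0703 FPKM in Ctrl and 0.589 ± 0.0472 in MIR21-KO cells (SD, n = 3 each), under the level needed for the test. In the fit of genes with a mean of 10 reads or more it was called higher (log2 fold change 1.75 ± 0.255, SE, FDR = 0.00184, limma). It was the 1 called of 4 such markers tested there, in a fit that called 20.5% of all its genes. The part of these markers in the results was not tested. In bulk RNA, fewer cells of a kind and less RNA per cell cannot be told apart.

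Some transcripts of the module fell in MIR21-KO cells and others did not pass the test. AREG, EREG, ERRFI1 and EGFR were lower. HBEGF (155% of its Ctrl mean) and BTC (122%) were higher in each MIR21-KO library without passing the test. The values of ERBB2, TGFA and NRG1 overlapped between the groups. ERBB3, which rested on few reads, was lower in each MIR21-KO library (17.5% of its Ctrl mean) but under the level needed for the test. AREG showed the largest change, to 4.87% of its Ctrl level. The 16006 genes averaging at least 0.5 FPKM over the libraries were tested on log2(FPKM + 0.1) with limma (two-sided), and were called at a Benjamini-Hochberg FDR under 0.01. Of the 10 genes, 9 could be tested, and 4 of these were called, all of them lower. Of all tested genes 16.0% were called, 7.66% higher and 8.38% lower. The 3 Ctrl values and the 3 MIR21-KO values did not overlap for 6 of the 9 genes, as was the case for 48.1% of all tested genes. The median log2 fold change (MIR21-KO over Ctrl, as throughout) was -0.22 over the 9 genes and -0.017 over all tested genes.

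**Figure D1:**
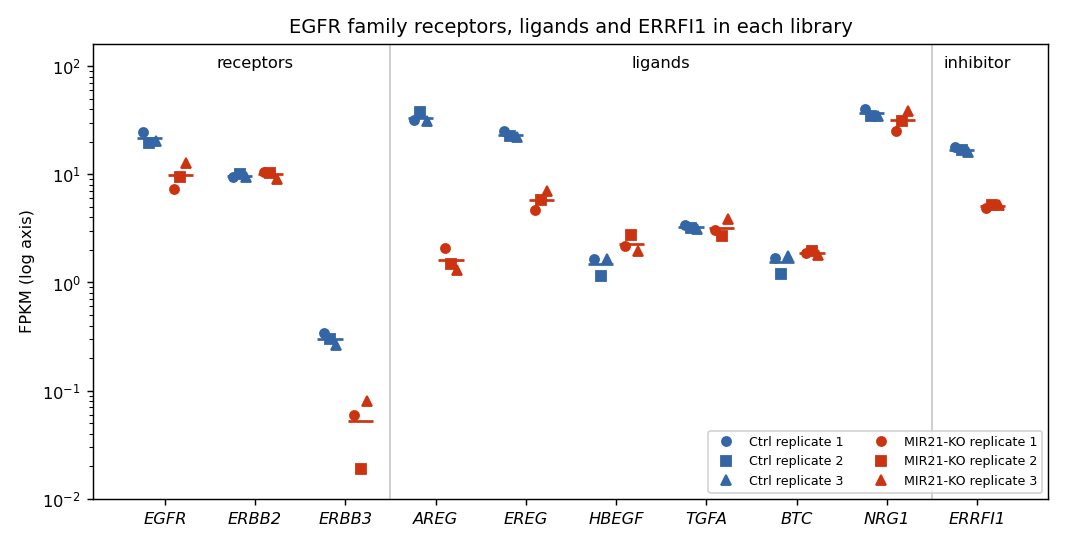
FPKM (log axis) of the 10 genes in each of the 6 libraries, with replicates as symbols, group means as horizontal lines, Ctrl in blue and MIR21-KO in red. AREG drops from 31.0 to 37.8 FPKM in Ctrl to 1.31 to 2.09 FPKM in MIR21-KO cells, whereas the values of ERBB2, TGFA and NRG1 overlap between the groups.

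Among the receptors, EGFR (ENSG00000146648, chromosome 7, 55019021 to 55211628, plus strand, GRCh38) was considered first. Ctrl libraries had 24.8, 19.5 and 20.5 FPKM and MIR21-KO libraries 7.33, 9.44 and 12.8 FPKM. Each MIR21-KO value lay below each Ctrl value, but MIR21-KO replicate 3 was 1.75-fold above replicate 1. EGFR fell by 1.15 ± 0.204 on the log2 scale (SE; 95% interval of the fold change -1.64 to -0.66), with an FDR of 0.00689. The call did not survive the removal of any Ctrl library (FDR = 0.0310, 0.0222 and 0.0268 without replicates 1, 2 and 3) or of MIR21-KO replicate 2 (FDR = 0.0332). It was also lost without a filter on low values, without trend and robust fitting, and under the replicate block (FDR = 0.0234). It held without MIR21-KO replicate 1 (FDR = 0.00816) or MIR21-KO replicate 3 (FDR = 0.00155). Over all alternatives the FDR was 0.000878 to 0.0332 and the log2 fold change -1.36 to -0.96.

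ERBB2 (ENSG00000141736, chromosome 17, 39687914 to 39730426), the partner that other family receptors pair with, differed little. It was measured at 9.40, 10.1 and 9.54 FPKM in Ctrl and at 10.5, 10.3 and 9.06 FPKM in MIR21-KO cells, with overlapping groups. The log2 fold change was 0.04 ± 0.087 (SE; 95% interval -0.17 to 0.24; FDR = 0.785, limma), so that a decrease of the size seen for EGFR lay outside the interval. The sign of this small value was negative under scaling by total reads. ERBB2 overlaps PGAP3 (3.40 to 9.002 FPKM) and MIEN1 (15.9 to 26.2 FPKM) on the opposite strand, and EGFR overlaps EGFR-AS1 (0 to 0.644 FPKM). The libraries were strand-specific, but the strand setting of the counting is not given in the sources used here.

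The ratio of EGFR to ERBB2 FPKM went from 2.24 ± 0.365 in Ctrl to 1.01 ± 0.366 in MIR21-KO cells (SD, n = 3 each). It was 0.700, 0.914 and 1.41 in MIR21-KO replicates 1 to 3 and 1.92 to 2.64 in Ctrl libraries, without overlap.

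ERBB3 (ENSG00000065361, chromosome 12, 56076799 to 56103505), the receptor for NRG1, was scarce. Its levels were 0.345, 0.301 and 0.262 FPKM in Ctrl and 0.0593, 0.0189 and 0.0801 FPKM in MIR21-KO cells, resting on 38, 28 and 31 reads and on 7, 2 and 9 reads. All MIR21-KO values were below all Ctrl values. The mean was under the filter, so ERBB3 was not tested in the first fit. Summed over libraries, MIR21-KO cells had 17.8% of the Ctrl reads after scaling to library size (exact 95% interval for counting error 10.1% to 29.6%). In a fit of the 15795 genes with a mean of at least 10 reads, where 20.5% of genes were called, ERBB3 was called lower, at -1.41 ± 0.220 on the log2 scale (SE) and an FDR of 0.00239 by limma. Without any filter it was not called (FDR = 0.033), and on recovered reads with voom its FDR was 0.00172 at a log2 fold change of -2.58.

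Of the 5 members that encode ligands of EGFR, AREG and EREG were the most abundant in Ctrl cells, and both fell in MIR21-KO cells. AREG (ENSG00000109321, chromosome 4, 74445134 to 74455009, plus strand) encodes amphiregulin, a low-affinity EGFR ligand. It had 31.6, 37.8 and 31.0 FPKM in Ctrl and 2.09, 1.49 and 1.31 FPKM in MIR21-KO libraries. The lowest Ctrl value was far above the highest MIR21-KO value. The MIR21-KO mean was 20.5-fold lower (log2 fold change -4.30 ± 0.177, SE; 95% interval -4.72 to -3.88), at an FDR of 4.19e-05 by limma. This placed AREG at rank 14 of 16006 tested genes ordered from the most negative fold change, and at rank 11 of 11719 protein-coding genes. MIR21-KO values rested on 47, 30 and 28 reads. The counting interval of the scaled read ratio was 4.03% to 6.02% of Ctrl. AREG was called under all alternatives, with an FDR of at most 0.000976.

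EREG (ENSG00000124882, chromosome 4, 74365143 to 74388751, plus strand) encodes epiregulin, which also binds ERBB4. Ctrl libraries had 25.0, 22.7 and 22.2 FPKM and MIR21-KO libraries 4.66, 5.77 and 7.04 FPKM, again without overlap. EREG retained 25.0% of its Ctrl level, with a difference on the log2 scale of -1.998 ± 0.151 (SE; 95% interval -2.36 to -1.64; FDR = 0.000291, limma). It was called under all alternatives (FDR at most 0.00359). The ratio of AREG to EREG FPKM was 1.27 to 1.67 in Ctrl and 0.186 to 0.449 in MIR21-KO libraries. AREG thus had the higher FPKM of the pair in Ctrl and EREG in MIR21-KO cells.

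HBEGF (ENSG00000113070, chromosome 5, 140332843 to 140346631), whose product is also the diphtheria toxin receptor, was higher in each MIR21-KO library than in any Ctrl library, without passing the test. It was at 1.64, 1.1399 and 1.65 FPKM in Ctrl and at 2.19, 2.73 and 1.94 FPKM in MIR21-KO libraries, with 37 to 101 reads per library. The log2 fold change was 0.60 ± 0.204 (SE; 95% interval 0.12 to 1.09), at an FDR of 0.0633 by limma (0.0442 to 0.1995 over the alternatives). HBEGF was the only member with a let-7 seed heptamer in its longest 3′ UTR, a word that 12.6% of the tested protein-coding genes held. Shorter let-7 matches of 6 bases, to bases 2 to 7 of the miRNA, were found in 30.6% of these genes. They were present in ERRFI1 (2 matches, 1 of them followed by an A) and in BTC (1 match). The HBEGF stretch is printed because let-7 is the other miRNA family the study considered; capitals mark the 7 bases complementary to the seed.
HBEGF: tcggctggggactgCTACCTCtgag

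TGFA (ENSG00000163235, chromosome 2, 70447280 to 70554193) encodes TGF-alpha, a ligand that tumor cells often make for themselves. It had 3.43, 3.185 and 3.14 FPKM in Ctrl and 3.03, 2.72 and 3.84 FPKM in MIR21-KO libraries, with overlapping groups. Its log2 fold change was -0.04 ± 0.147 (SE; 95% interval -0.39 to 0.31; FDR = 0.865, limma), and its sign turned without Ctrl replicate 1 or MIR21-KO replicate 2. BTC (ENSG00000174808, chromosome 4, 74744759 to 74794686, minus strand) encodes betacellulin, which binds EGFR and ERBB4. It was at 1.67, 1.19 and 1.74 FPKM in Ctrl and at 1.88, 1.97 and 1.78 FPKM in MIR21-KO libraries. The groups lay close to each other without overlap, and the log2 fold change of 0.29 ± 0.179 (SE; 95% interval -0.14 to 0.72) was not called (FDR = 0.258, limma).

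NRG1 (ENSG00000157168, chromosome 8, 31639386 to 32767959), the ligand of ERBB3, had the highest mean of the 10 genes in both groups. Ctrl libraries had 40.2, 34.6 and 34.6 FPKM and MIR21-KO libraries 25.2, 31.2 and 38.5 FPKM. MIR21-KO replicates 1 and 2 were below the Ctrl values and replicate 3 among them, at 1.53-fold the level of replicate 1. The log2 fold change was -0.22 ± 0.158 (SE; 95% interval -0.60 to 0.16; FDR = 0.327, limma; 0.0480 to 0.699 over the alternatives). It was -0.069 when MIR21-KO replicate 1 was left out, -0.37 when MIR21-KO replicate 3 was, and -0.15 when Ctrl replicate 1 was.

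Summed FPKM of the members AREG, EREG, HBEGF, TGFA and BTC was 63.3, 66.0 and 59.7 in Ctrl and 13.9, 14.7 and 15.9 in MIR21-KO libraries. EGFR ligands outside the members, such as EGF, were not part of this sum. AREG made up 53.0% ± 3.83 of this sum in Ctrl and 11.2% ± 3.55 in MIR21-KO cells (SD, n = 3 each). The share of EREG was 37.0% ± 2.56 and 39.1% ± 5.31. TGFA went from 5.17% ± 0.308 to 21.5% ± 2.83 of the sum and HBEGF from 2.36% ± 0.554 to 15.5% ± 3.22, on a sum that was itself smaller. By FPKM, a mixture led by AREG was thus replaced by a smaller one in which EREG held the largest share. These are mRNA levels, and ligand protein was not measured in these libraries.

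**Figure D2:**
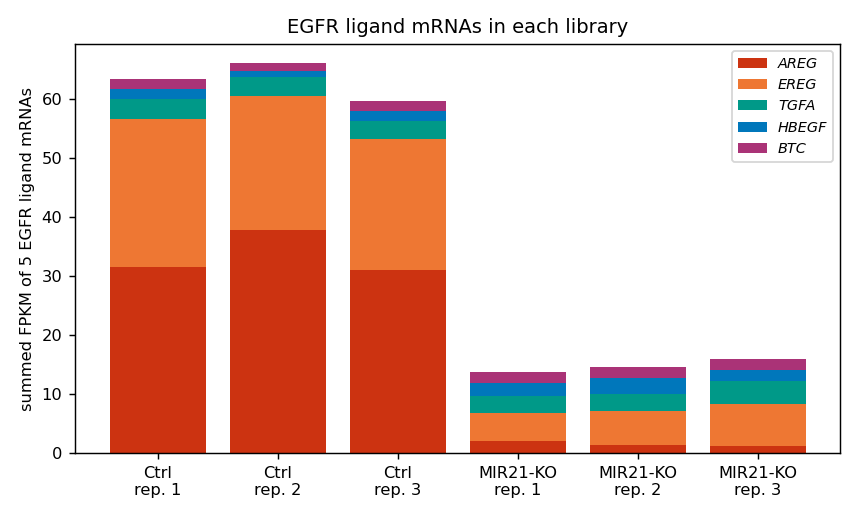
Summed FPKM of the 5 EGFR ligand mRNAs among the members in each library. Each bar starts at 0 and each colour shows the FPKM of 1 ligand. The bars of the 3 Ctrl libraries reach 59.7 to 66.0 and those of the 3 MIR21-KO libraries 13.9 to 15.9, and most of the difference is in the AREG and EREG segments.

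ERRFI1 (ENSG00000116285, chromosome 1, 8004404 to 8026308, minus strand) encodes an inhibitor that binds the EGFR kinase domain and is induced by EGFR signalling. Its MIR21-KO libraries had the smallest relative spread of the 10 genes (coefficient of variation 3.72%). Levels were 17.7, 16.6 and 16.2 FPKM in Ctrl and 4.89, 5.23 and 5.21 FPKM in MIR21-KO libraries. MIR21-KO cells kept 30.3% of the Ctrl level. The log2 fold change was -1.70 ± 0.077 (SE; 95% interval -1.89 to -1.52; FDR = 4.95e-05, limma), and the FDR was at most 0.00233 under all alternatives. Of the 4 genes called lower, EGFR retained 45.7%, ERRFI1 30.3%, EREG 25.0% and AREG 4.87% of the Ctrl mean.

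**Figure D3:**
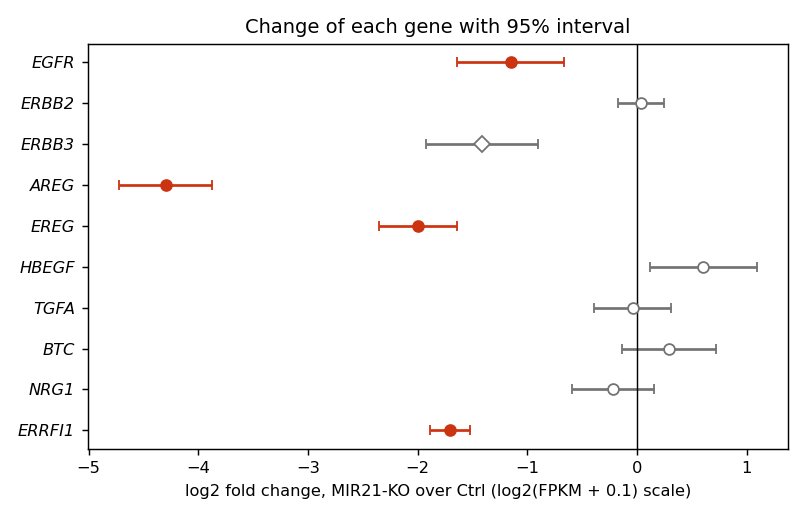
Log2 fold change (MIR21-KO over Ctrl, log2(FPKM + 0.1) scale) of each gene with its 95% interval. Filled red circles are genes called at an FDR under 0.01 and open grey circles are not called. The open diamond of ERBB3 comes from the fit with a minimum mean of 10 reads, in which it was called. The 4 called genes lie at -1.15 or below, and the intervals of ERBB2, TGFA, BTC and NRG1 include 0.

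In order of FPKM, Ctrl cells had NRG1 (36.5), AREG (33.5), EREG (23.3), EGFR (21.6), ERRFI1 (16.9), ERBB2 (9.69), TGFA (3.25), BTC (1.53), HBEGF (1.48) and ERBB3 (0.302) as group means. The ranges of NRG1 and AREG, of EREG and EGFR, and of BTC and HBEGF overlapped. MIR21-KO cells had NRG1 (31.7), ERBB2 (9.95), EGFR (9.86), EREG (5.82), ERRFI1 (5.11), TGFA (3.19), HBEGF (2.29), BTC (1.88), AREG (1.63) and ERBB3 (0.0528). Here ERBB2 and EGFR, EREG and ERRFI1, TGFA and HBEGF, HBEGF and BTC, and BTC and AREG overlapped. AREG moved from place 2 to place 9. Within MIR21-KO cells, replicate 3 had the highest value of 5 of the 10 genes (EGFR, ERBB3, EREG, TGFA and NRG1), and the lowest of 4 others (ERBB2, AREG, HBEGF and BTC). Replicate 1 was lowest for EGFR, EREG, NRG1 and ERRFI1 and highest for ERBB2 and AREG.

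AREG, EREG and BTC lie in a cluster on chromosome 4, where the EREG start is 79.99 kb before and the BTC start 349.6 kb beyond the AREG start. The neighbourhood was therefore examined for genes with at least 0.5 FPKM in a group within 500 kb of the AREG start. PPBP, CXCL5, CXCL3 and CXCL2, which encode chemokines, and MTHFD2L, a mitochondrial folate enzyme, lie on the EREG side. CXCL5 was by far the most abundant, at 642.1, 675.7 and 637.2 FPKM in Ctrl and 474.6, 482.7 and 554.5 FPKM in MIR21-KO libraries (log2 fold change -0.37, FDR = 0.0288 by limma, not called; 0.00353 to 0.127 over the alternatives). CXCL3 fell by 0.56 ± 0.093 on the log2 scale (SE), at an FDR of 0.00531 by limma (0.00171 to 0.0298 over the alternatives); as for EGFR, its call was lost without any Ctrl library or without MIR21-KO replicate 2. PPBP (-0.75, FDR = 0.317), CXCL2 (-0.17, FDR = 0.388) and MTHFD2L (0.04, FDR = 0.864) were not called. Of the 8 genes tested in the window, AREG and EREG, around which it was drawn, and CXCL3 were called. CXCL3 was thus 1 of 6 other genes, where 16.0% of all tested genes were called. The antisense gene AC239584.1, between AREG and BTC, was at 0.508 to 0.644 FPKM in Ctrl and 0.112 to 0.316 FPKM in MIR21-KO libraries and was not tested. The pseudogene AC093677.1 had 0.411 to 1.08 and 0.120 to 0.455 FPKM, overlapping, and was not tested either. BTC, on the far side, was not lower in any MIR21-KO library than in Ctrl.

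**Figure D4:**
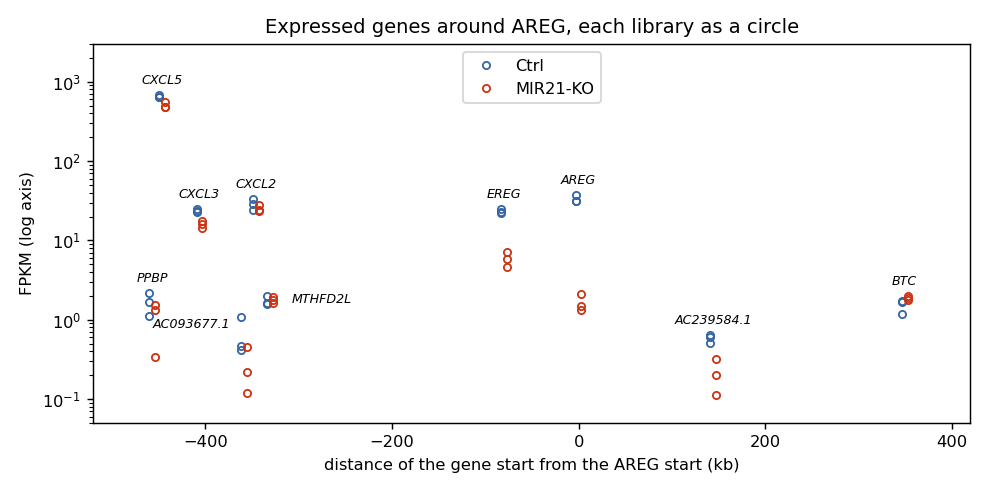
FPKM (log axis) of genes around AREG against the distance of their starts from the AREG start in kb, each circle being 1 library, Ctrl in blue and MIR21-KO in red. Blue and red circles are far apart at AREG and EREG, and close or mixed at CXCL2, MTHFD2L and BTC.

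The 250 bases before the RefSeq starts of AREG and EREG (GRCh38.p14, plus strand) are shown. These 2 genes were picked after their falls had been seen, and a link between the sequences and the falls was not tested. The sequences were searched for the cyclic AMP response element TGACGTCA, the AP-1 word TGASTCA (S for C or G) and the TATA word TATAAA, all on both strands (the first 2 read alike on both); matches are in capitals. AREG covers 74444886 to 74445135 and EREG 74364895 to 74365144 of chromosome 4.
AREG: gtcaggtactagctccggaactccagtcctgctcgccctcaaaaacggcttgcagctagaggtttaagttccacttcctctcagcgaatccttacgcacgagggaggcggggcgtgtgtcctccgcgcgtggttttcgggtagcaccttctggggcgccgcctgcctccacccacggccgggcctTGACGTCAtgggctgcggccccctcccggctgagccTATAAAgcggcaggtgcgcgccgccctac
EREG: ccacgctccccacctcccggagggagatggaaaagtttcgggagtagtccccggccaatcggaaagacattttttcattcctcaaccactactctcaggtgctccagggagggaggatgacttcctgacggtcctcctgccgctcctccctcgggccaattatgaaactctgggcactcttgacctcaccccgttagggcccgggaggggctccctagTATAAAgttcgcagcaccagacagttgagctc
The AREG stretch held the cyclic AMP response element 65 bases and TATAAA 29 bases before the start. The EREG stretch held TATAAA 32 bases before the start, and neither of the other words. Of 35116 promoters in the table, 1.65% held the response element, 4.2% the AP-1 word and 10.7% TATAAA. The response element was in no other promoter of the members found in the table, in which NRG1 and ERBB3 were not matched. The EGFR promoter at 55109589 to 55109838 of chromosome 7 held 2 AP-1 words and 2 TATAAA words. Such matches are descriptions of the sequence, and factor binding was not measured.

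The remaining family genes were hardly expressed. ERBB4 and NRG3 were at 0 in all libraries and EPGN had at most 1 read. None of the 6 genes reached the mean needed for the test. EGF, the name-giving ligand, had 0.115, 0.212 and 0.215 FPKM in Ctrl and 0.647, 0.747 and 0.969 FPKM in MIR21-KO libraries, resting on 9 to 18 and on 54 to 77 reads. The groups did not overlap, and with the minimum mean of 10 reads EGF was called higher (log2 fold change 1.67 ± 0.235, SE, FDR = 0.00158, limma). Even so, the MIR21-KO mean of 0.787 FPKM was below that of each of the 5 EGFR ligands among the members. NRG2 had 0.345 ± 0.119 and 0.555 ± 0.1004 FPKM (SD, n = 3 each) and was not called in that fit (FDR = 0.110).

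Genes around the receptors were grouped by function, and are given as counts over all tested genes. Of 9 genes that release ligands or guide the proteases, 8 were tested, 2 were called higher and 1 lower (37.5%, against 16.0% of all tested genes), with a median log2 fold change of 0.025. ADAM19, a membrane protease with neuregulin among its substrates, rose from a mean of 13.5 ± 0.698 FPKM in Ctrl to 37.1 ± 5.08 in MIR21-KO cells (SD, n = 3 each), a log2 difference of 1.44 ± 0.111 (SE) at an FDR of 0.000315 by limma. RHBDF1 (0.59, FDR = 0.00507) rose and RHBDF2 (-0.44, FDR = 0.00901) fell. Both encode inactive rhomboids that guide ADAM17, and they are named because few genes of the group were called, after their values had been seen. Their calls were lost under at least 1 alternative, with FDRs up to 0.0346 and 0.0525. ADAM17 itself, the main protease of AREG and named for that role, had 13.7 ± 0.872 and 12.4 ± 2.09 FPKM and was not called (FDR = 0.416).

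Of 16 tested genes of receptor turnover and inhibition, 2 were called higher and 0 lower (12.5%, against 16.0% of all tested genes), with a median log2 fold change of 0.039. CBLB, a ubiquitin ligase for active receptors, rose from a mean of 2.16 ± 0.0770 FPKM in Ctrl to 5.31 ± 0.783 in MIR21-KO cells (SD, n = 3 each), a log2 difference of 1.25 ± 0.131 (SE) at an FDR of 0.000951 by limma. SH3KBP1 (CIN85), which links CBL proteins to endocytosis and was named after its values had been seen, rose from 25.4 ± 0.115 to 44.0 ± 3.14 FPKM (log2 fold change 0.79, FDR = 0.000655, limma). The other 14 genes were not called. Of 11 tested adaptor genes, 1 was called (9.09%). PLCG1, a phospholipase recruited by active receptors and named after its values had been seen, rose from 8.80 ± 0.380 to 14.1 ± 0.859 FPKM (log2 fold change 0.68, FDR = 0.00149, limma; at most 0.0161 over the alternatives). The median of the adaptor group was -0.071.

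Of 17 tested genes that ERK signalling is known to induce, 4 were called higher and 4 lower (47.1%, against 16.0% of all tested genes), and the median log2 fold change was 0.049. CCND1, which encodes cyclin D1, fell from a mean of 78.6 ± 3.02 FPKM in Ctrl to 26.8 ± 1.52 in MIR21-KO cells (SD, n = 3 each), a log2 difference of -1.55 ± 0.076 (SE) at an FDR of 6.44e-05 by limma. FOSL1, which encodes the AP-1 subunit FRA1, fell from 33.6 ± 2.19 FPKM in Ctrl to 14.8 ± 1.41 in MIR21-KO cells, a log2 difference of -1.18 ± 0.096 (SE) at an FDR of 0.000373 by limma. EPHA4, an ephrin receptor, rose from 0.977 ± 0.0369 FPKM in Ctrl to 2.24 ± 0.247 in MIR21-KO cells, a log2 difference of 1.11 ± 0.151 (SE) at an FDR of 0.00249 by limma. The other called genes, named after their values had been seen, were DUSP5 (0.68), DUSP6 (0.60) and PHLDA1 (0.59) on the higher side and EPHA2 (-0.62) and DUSP4 (-0.36) on the lower side. DUSP4, DUSP5 and DUSP6 encode phosphatases that inactivate ERK, and they did not move in 1 direction. Their FDRs in the main fit were 0.00828, 0.00367 and 0.00929 by limma. Each of these calls was lost under at least 1 alternative, with FDRs up to 0.0566, 0.0239 and 0.0552. CCND1 and FOSL1 were called under all alternatives. EPHA4 lost its call without any Ctrl library, without MIR21-KO replicate 2 and under the replicate block (FDR at most 0.0189 over the alternatives). It was below the level for the fit with a minimum mean of 5 FPKM. The count of 8 was 3, 4 and 2 without Ctrl replicates 1, 2 and 3, and 3 without MIR21-KO replicate 2.

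**Figure D5:**
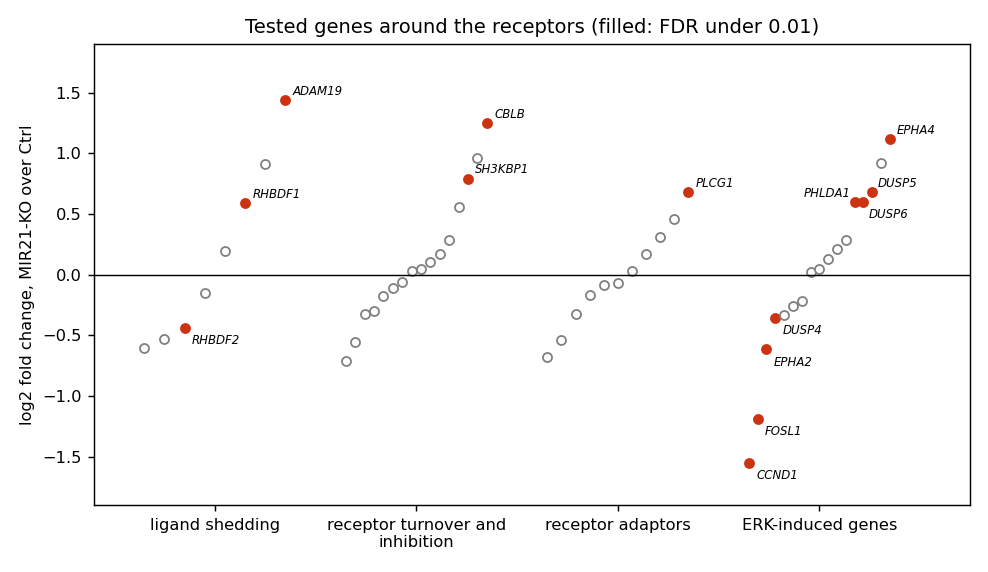
Log2 fold change (MIR21-KO over Ctrl, log2(FPKM + 0.1) scale) of each tested gene in 4 groups around the receptors, ordered by value within a group. Filled red circles are called at an FDR under 0.01 and open circles are not called. Genes of each group lie on both sides of 0, with ADAM19 and CBLB at the upper end of their groups and CCND1 and FOSL1 at the lower end of the ERK-induced genes.

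The genes most alike AREG over the 6 libraries were sought among 6797 protein-coding genes averaging 5 FPKM or more, by Pearson correlation of log2(FPKM + 0.1). They were CCNB1 (r = 0.9997), a mitotic cyclin, PPARG (r = 0.9995), a nuclear receptor, and COA7 (r = 0.9994). CCNB1 fell from 121.7 ± 2.83 to 55.8 ± 3.49 FPKM and PPARG from 11.3 ± 0.141 to 5.76 ± 0.353 FPKM (SD, n = 3 each). For EGFR they were KIAA0100 (r = 0.9996), the chromatin remodeller gene BAZ1A (r = 0.9994) and the coactivator gene NCOA3 (r = 0.9991). NCOA3 fell from 24.5 ± 2.45 to 12.8 ± 3.21 FPKM. The points share their libraries and fall into the 2 groups, so that these values mainly describe the difference between the groups and its order within MIR21-KO cells.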

How the data were processed

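PolyA RNA-seq of 6 A549 libraries was analysed, with groups and replicate numbers from the sample titles. The authors deposited 1 table with FPKM per gene and library, gene length, and their own fold changes, p-values and FDRs, which were not used. The submitters' processing notes name cutadapt 1.14, HISAT2 2.1.0, SAMtools 1.5, featureCounts 1.5.3, edgeR 3.18.1 and hg38. FPKM times gene length gave whole reads for 100% of values within 0.1 of a read. The library sizes implied were 0.950 to 1.03 times the recovered totals. How reads shared by overlapping genes were counted is not given in the sources used here, and ERBB2, EGFR, ERBB3, TGFA, NRG1 and ERRFI1 overlap annotated genes.

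Log2(FPKM + 0.1) of the 16006 genes averaging at least 0.5 FPKM was fitted with limma 3.58.1 (R 4.3.3; eBayes with trend and robust fitting, no covariate). Fold changes on this scale understate the change of low genes. Alternatives were other pseudocounts, filters, scalings, voom on recovered reads, an FDR of 0.05, a replicate block and leaving out each library. Same-numbered libraries did not deviate together. That check cannot show whether they were grown or prepared in parallel, and the main fit used no pairing.

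Genes were matched to GENCODE 29 (GRCh38) by identifier; miRNA and promoter sequences came from RefSeq. Named were all members, list genes called with at least 2-fold change, expressed neighbours of AREG, and the 3 genes most alike AREG and EGFR. For lists with no called gene, the 2 most abundant were named. Some further genes were named for their role or after their values had been seen, where so stated. The members and lists were chosen with earlier results of these data known. Figures were drawn with matplotlib 3.10.9.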

Additional observations from a re-analysis of the deposited data

How the results depend on the processing

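AREG, EREG and ERRFI1 were called lower under all alternatives tried. Of the members, 3 to 5 were called: EGFR was lost without a filter, without trend and robust fitting, with the replicate block and without any Ctrl library or MIR21-KO replicate 2, and ERBB3 was gained with a minimum mean of 10 reads or voom. Log2 fold changes that turned sign lay near 0: ERBB2 was at -0.00035 under scaling by total reads and -0.0021 without MIR21-KO replicate 1, and TGFA at 0.00035 without Ctrl replicate 1 and 0.068 without MIR21-KO replicate 2. With 1 library left out, ERBB2 ranged from -0.0021 to 0.10 and TGFA from -0.17 to 0.068. Over all genes, 2568 were called, 5114 at an FDR under 0.05 and 768 to 3400 with 1 library left out (895, 922 and 873 without Ctrl replicates 1, 2 and 3, and 768 without MIR21-KO replicate 2). Of the ERK-induced genes 8 were called, and 2 to 7 with 1 library left out. Under the replicate block 651 genes, 3 members and 2 ERK-induced genes were called; deviations of same-numbered libraries correlated at -0.171, -0.0177 and -0.0174, and no pairing follows from the numbers. The number of all called genes rose from 2568 to 3400 when MIR21-KO replicate 3 was dropped, and was 2193 when replicate 1 of that group was. Each fit with a library left out had fewer samples than the main fit. Why the numbers of calls differed between these fits was not tested. Scaling by total reads moved the median of all genes by -0.035. With 2 to 47 reads per MIR21-KO library, ERBB3 and AREG are limited by depth, and ERBB3 most.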
